A study of Rhipicephalus microplus with 12 samples.

Results

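In the cattle tick *Rhipicephalus microplus*, 100 of 13459 array probes (0.743%) stood far higher in the salivary gland of feeding females than in their midgut and ovary. These members were chosen from the deposited log2 ratios: the mean over the 4 salivary gland arrays had to lie at least 2.5 on the log2 scale (5.66-fold) above the midgut mean and above the ovary mean. Salivary gland against the other tissues is therefore described here without a test. Of the members, 86 carry a probe identifier (a contig or sequence name). The other 14 matched no fold change deposited by the authors and could be given no identifier. The files pair no gene description with any identifier, and none was found in the RefSeq gene table of the species, so no member has a gene name or function here.

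The tissues came from adult females of the Mozambique strain that had fed on Holstein-Friesian cattle and were dissected on day 20 of infestation. Midgut, ovary and salivary gland each had 2 biological replicates with 2 arrays per replicate, 12 arrays in all. Each array carried tissue RNA in Cy5 and a common reference pool in Cy3, which mixed ticks of days 4, 5, 7, 13 and 15 with tissues of day 20. Nothing in the labels gives the number of ticks or cattle behind a replicate, so a p-value here reflects the spread between the samples at hand, which may be technical.

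A hard tick stays attached to its host for days, and its salivary glands secrete the saliva that keeps the feeding site open. Tick saliva is known to carry cement, anticoagulants, protease inhibitors and proteins that bind host amines or chemokines, and the glands return excess water and ions of the blood meal to the host. The midgut takes up and digests the blood meal, and the ovary produces the eggs.

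A value below is a log2 ratio of tissue to pool, likely in that direction, since Cy5 marked the tissue RNA and limma, named in the submitters' processing notes, forms red over green. Were it pool over tissue, the members would be low in salivary gland. A ratio to the pool is no absolute level, so probes are compared through differences between tissues. In whole tissues, fewer cells of a type and less RNA per cell cannot be told apart. Over all probes the median ratio of an array ran from -0.05 to 0.39, and 3 arrays (the repeat of midgut replicate 2 at -0.05, the first of ovary replicate 1 at -0.03 and the repeat of ovary replicate 2 at -0.03) lay below the 0.26 to 0.39 of the other midgut and ovary arrays. Without these 3, 94 probes met the rule, 93 of them members. Over the members it ran from 0.91 to 1.07 on the salivary gland arrays, from -2.42 to -2.15 on the midgut arrays and from -3.34 to -2.44 on the ovary arrays.

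The label of a salivary gland set held on every array: at all 100 members the lowest of the 4 salivary gland arrays lay above the highest of the other 8, against 10.1% of all probes, a count that the choice of members largely fixes. The smallest such gap was 0.68. The word confined is relative, because the midgut held a median of 10.5% of the salivary gland level (1.85% to 17.4%) and the ovary 8.71% (0.891% to 17.6%). Whether such low values are background cannot be said, because spot intensities were not used here. The median difference was 3.25 over midgut and 3.52 over ovary, where all probes had -0.13 and -0.13. The smaller of both differences, called the margin, reached 3 at 51 members, 4 at 11 and 5 at 3. The midgut was the nearer tissue at 70 members and the ovary at 30, but with quantile normalization the midgut exceeded the ovary at only 41. In limma, 99 members passed an adjusted p of 0.05 against midgut (10.6% of all probes were higher in salivary gland) and 100 against ovary (21.3%), from which nothing is read, as the choice used these contrasts.

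**Figure D1:**
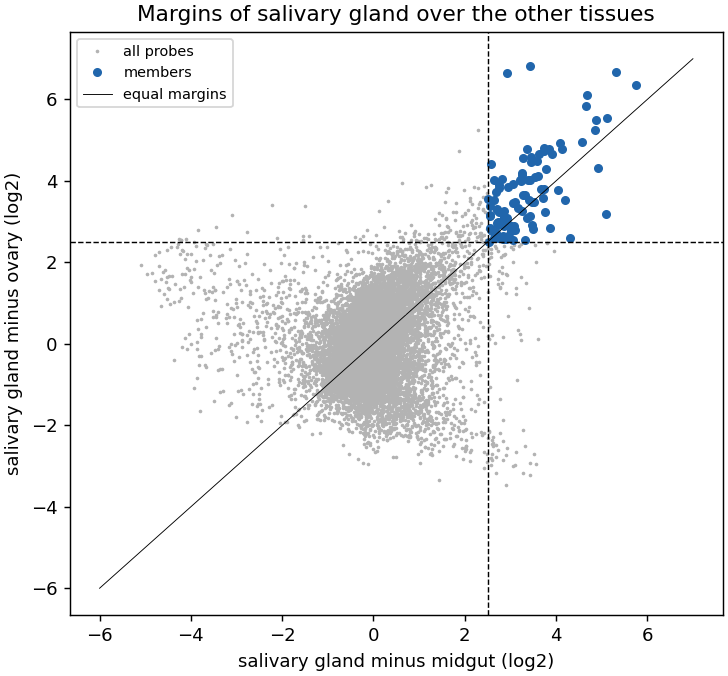
Each probe's salivary gland mean minus its midgut mean (x, log2) and minus its ovary mean (y, log2), with all 13459 probes in grey, the 100 members in blue and the limit of 2.5 as dashed lines. Members above the diagonal, 70 of them in the deposited values (41 with quantile normalization), are closer to midgut than to ovary, and the widest difference to ovary is 6.81.

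The largest margin belonged to Contig5329. Its salivary gland ratios were 2.15 and 2.06 on the arrays of replicate 1 and 2.76 and 2.83 on those of replicate 2. Midgut gave -3.47, -3.03, -3.49 and -3.23, and ovary gave -3.45, -3.38, -4.59 and -4.17. The midgut level was thus 1.85% and the ovary level 1.23% of the salivary gland level, with no overlap of tissues. CV452616 came next, with salivary gland ratios of 1.10 and 1.15 in replicate 1 and 2.66 and 2.61 in replicate 2. Its midgut arrays ran from -3.54 to -3.21 and its ovary arrays from -5.04 to -4.47. The replicates of salivary gland differed 2.84-fold at this probe, while the arrays within each of these replicates nearly coincided.

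At the limit, CK186923 (margin 2.52) and Contig8364 (2.51) were the last with an identifier inside, and GO248522.1 (2.497) and Contig3785 (2.48) the first outside. Contig8364 was steady in salivary gland, at 0.55, 0.41, 0.57 and 0.54, and lay near -2 in both other tissues. A limit of 2 would have taken in 186 probes and a limit of 3 only 51.

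Against the pool the members fell into those above and those below it in salivary gland. The salivary gland mean was above the pool at 66 members (57.8% of all probes were) and below it at 34. All 100 members were below the pool in midgut and in ovary, where 60.9% and 60.5% of all probes were above it. The 34 were therefore below the pool in all 3 tissues, against 14.5% of all probes. Their median was -0.99 in salivary gland, -3.996 in midgut and -4.50 in ovary. The 66 had medians of 1.66, -1.87 and -2.10. Margins were alike in size, with a median of 3.19 in the 34 and 2.94 in the 66. Of the 14 members without an identifier, 11 were among the 34.

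Contig5116 had the highest salivary gland mean over the 4 arrays, from ratios of 2.14 and 1.86 in replicate 1 and 3.06 and 2.97 in replicate 2, and Contig5329 followed. The lowest mean of any member was that of Contig6450, with -2.35, -2.29, -1.75 and -1.66 in salivary gland, that is, 24.8% of the pool. Its midgut arrays ran from -5.97 to -5.47 and its ovary arrays from -7.12 to -6.26, so that the tissues kept the same order far below the pool. The next identified member was GO248521.1, at 33.1% of the pool in salivary gland, and the authors kept 2 of its 4 salivary gland spots.

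**Figure D2:**
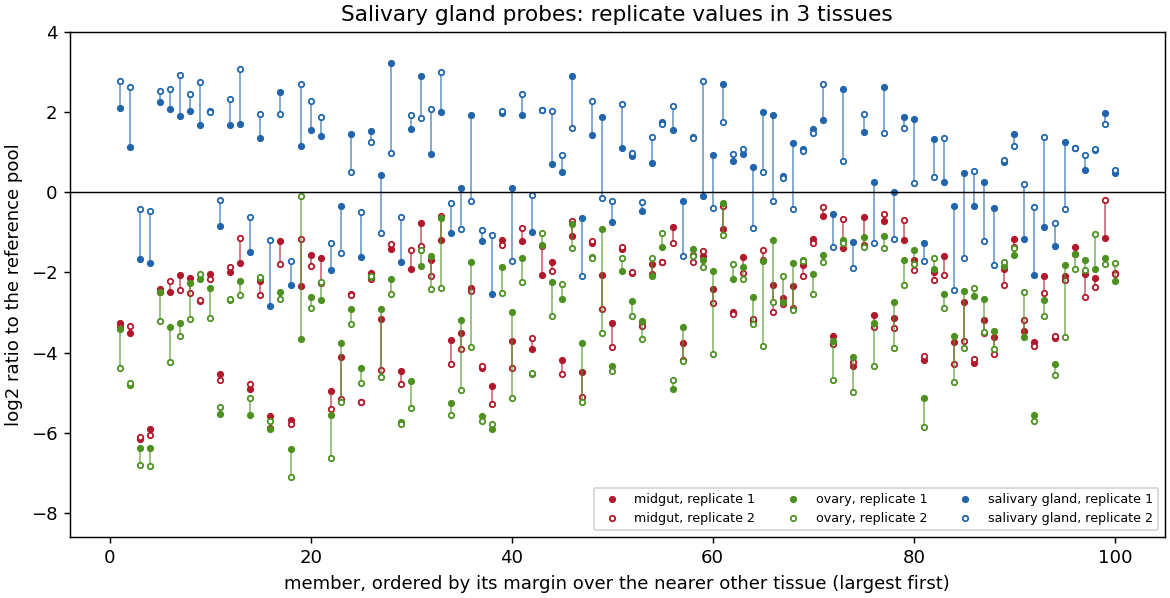
Log2 ratio to the reference pool (y) of the 100 members, ordered from the largest to the smallest margin (x), with a filled point for replicate 1, an open point for replicate 2 and a line joining them for each tissue. All midgut and ovary means lie below 0, while salivary gland lies above 0 at 66 members, and the blue lines are often long.

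Identifiers that begin with GO stood out by count, a group noticed only after its values were seen. Of 15 such probes with values, 4 were members (26.7%), against 65 of 7616 identifiers that begin with Contig (0.853%), 10 of 1415 that begin with CV (0.707%), 4 of 1056 with CK (0.379%), 2 of 171 with EW (1.17%), 1 of 385 with TC (0.26%), 0 of 22 with U and 0 of 15 with AA. Salivary gland was the highest tissue at 12 of the 15 GO probes and at 23.3% of all probes. All 15 were below the pool in salivary gland (-2.66 to -0.05). Their medians were -1.08 in salivary gland, -3.68 in midgut and -4.95 in ovary. The 4 members were GO248521.1, GO248518.1, GO248558.1 and GO248547.1, with margins of 3.59, 3.52, 3.36 and 3.28.

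Some members had nearly the same profile. Over the 12 arrays, 2 members without an identifier differed by 0.106 on average, with salivary gland ratios of -1.64, -1.67, -0.40 and -0.42 in one and -1.77, -1.75, -0.44 and -0.47 in the other. Their midgut ratios ran from -6.20 to -5.82. Among identified pairs, Contig8051 and Contig6346 differed by 0.168. The median distance of a member to its nearest neighbour was 0.307, and that between any pair of members 1.39. The nearest is the smallest of many distances, so it is lower by construction. No distances over all probes were taken. Whether such probes share a transcript was not tested.

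The salivary gland replicates differed widely at many members, a quantity the choice of members did not use directly, although a probe with a wide spread reaches an extreme mean more easily. The replicates were at least 2-fold apart at 46 members, against 3.54% of all probes. Replicate 1 was the higher at 26 of them (2.12% of all probes) and replicate 2 at 20 (1.42%). The median size of the difference was 0.92 at the members and 0.25 over all probes. Arrays of the same replicate differed by a median of only 0.10 at the members, and at no member were they 2-fold apart in salivary gland. With 1 RNA sample on each side, this has no test. For comparison, 188 probes were at least 2.5 higher in midgut than in both other tissues, and 19 of these had midgut replicates at least 2-fold apart (5.71% of all probes). At 56 probes as much higher in ovary, 0 had ovary replicates 2-fold apart (2.27%). Wide salivary gland differences were not limited to the members: at 11 of these 56 ovary probes the salivary gland replicates were at least 2-fold apart, with a median size of 0.56, and at 5 of the 188 midgut probes they were.

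The extremes show both directions. Contig4826 had 3.33 and 3.12 in salivary gland replicate 1 and 1.04 and 0.93 in replicate 2, a 4.72-fold difference. Contig4655 had 2.05 and 1.81 against -0.24 and -0.21. In the other direction Contig8401 had -0.11 and -0.09 in replicate 1 and 2.69 and 2.86 in replicate 2, a 7.32-fold difference, and Contig1751 had -0.71 and -1.005 against 1.29 and 1.502. At Contig8401 the salivary gland thus lay near the pool in one replicate and far above it in the other, while midgut (-1.77 to -1.40) and ovary (-2.10 to -1.59) stayed narrow. Only 59 members met the limit of 2.5 within both replicate numbers, 85 within replicate 1 and 73 within replicate 2. The number of probes that met it was 133 with salivary gland replicate 1 alone, 89 of them members, and 100 with replicate 2 alone, 72 of them members.

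At members higher in salivary gland replicate 1, the ovary was mostly less low in replicate 1 than in replicate 2. Their ovary medians were -2.31 in replicate 1 and -3.85 in replicate 2, and ovary replicate 1 reached at most -0.80. Of the 26 members, 25 were higher in ovary replicate 1 than in ovary replicate 2, against 55.1% of all probes, and 16 of them at least 2-fold (1.29% of all probes). Their median difference between replicates was 1.51 in salivary gland, 1.15 in ovary and 0.38 in midgut. Midgut replicate 1 was the higher at 20 of the 26, against 62.5% of all probes. At the 20 members higher in salivary gland replicate 2, the ovary showed no such side, with 13 higher in ovary replicate 1 and a median of 0.25.

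Across the 100 members, the replicate difference of salivary gland and that of ovary correlated with Pearson's r = 0.534 (Spearman's rho 0.465), against 0.101 (0.027) over all probes. Salivary gland and midgut had an r of 0.255 at the members and 0.034 over all probes, and ovary and midgut an r of 0.374 and -0.029, so that all 3 pairs of tissues were positive at the members. Members are not independent replicates: all points rest on the same 4 tissue replicates, every array shares the pool, and members with like profiles count more than once. At the 188 midgut probes, r for salivary gland and ovary was 0.227, and at the 56 ovary probes -0.018. The labels do not say whether replicates of the same number came from the same animals.

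**Figure D3:**
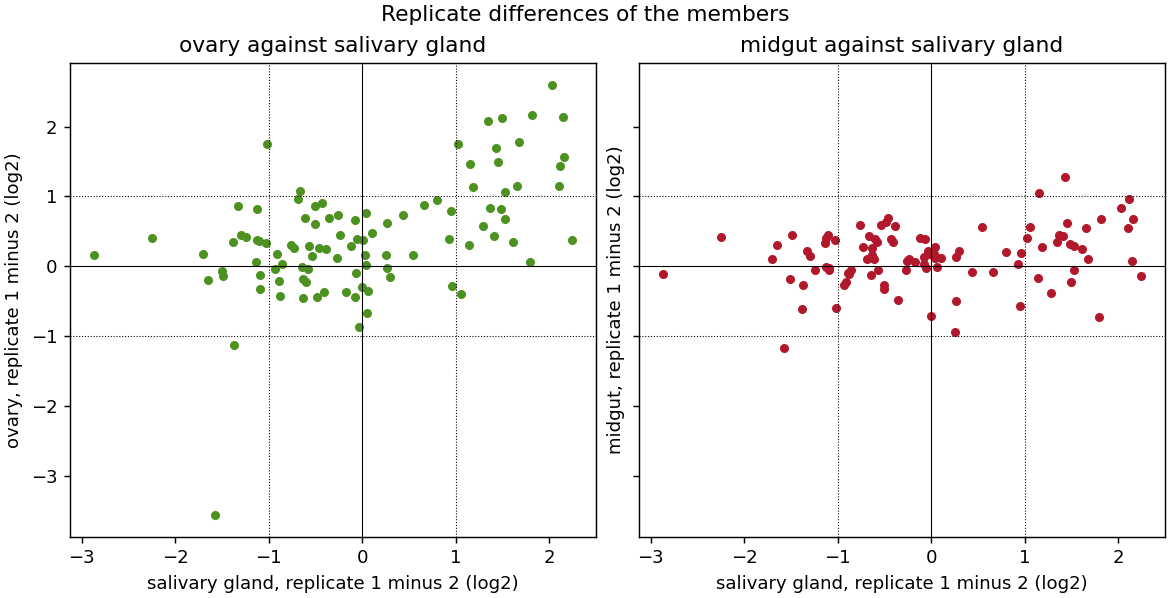
Replicate 1 minus replicate 2 (log2) in ovary (left, y) and midgut (right, y) against the same difference in salivary gland (x) for the 100 members, with dotted lines at 2-fold. On the left, 25 of the 26 members to the right of the dotted line lie above 0, while midgut on the right spans a narrower range.

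The arrays behind this were close. Contig8261, picked after its values were seen, had 2.07 and 1.72 in salivary gland replicate 1 and -0.04 and -0.22 in replicate 2. Its ovary ratios were -0.93 and -0.90 in replicate 1 and -3.40 and -3.63 in replicate 2, and its midgut ratios -2.07 and -2.07 against -2.82 and -2.99. All 3 tissues were higher in replicate 1. Contig2339, also picked afterwards, was the reverse, with salivary gland at 1.21 and 1.08 against 2.71 and 2.73, ovary at -3.75 and -3.58 against -0.09 and -0.11, and midgut at -2.13 and -2.54 against -1.05 and -1.27. Its ovary replicates differed 11.8-fold, the widest among the members, and its ovary level was close to the pool in replicate 2.

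Ovary replicates were at least 2-fold apart at 20 members, 18 of them higher in replicate 1 (1.29% of all probes) and 2 higher in replicate 2 (0.981%). Midgut replicates were so at only 3 members, 2 higher in replicate 1 (5% of all probes) and 1 higher in replicate 2 (0.706%). With quantile normalization, 11 members had ovary replicates that far apart. At 18 of the 20 the salivary gland replicates were 2-fold apart in the same direction. They were that far apart in either direction at 46 of all 100 members, and no matching share over all probes was taken. At Contig5116, 1 of the 20, the distance rests on a single array of ovary replicate 1 (0.79, against -2.06 on the other), whose spot the authors left out.

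The midgut and the ovary were compared last. The rule does not say which of them is higher or how far apart they are, but both means entered it. Midgut exceeded ovary at 70 members, against 52% of all probes, with a median difference of 0.39 against 0.04. In limma, 27 members passed an adjusted p of 0.05, 24 higher in midgut and 3 higher in ovary, against 40.6%, 22.3% and 18.3% of all probes. The share of members past the threshold was thus below that of all probes. By direction, the share higher in midgut was near that of all probes and the share higher in ovary was below it. The standard error was larger at the members, with a median of 0.34 against 0.23. The fit takes 1 spread from all 3 tissues, so a wide salivary gland replicate difference enlarges this standard error too. None of the 26 members higher in salivary gland replicate 1 passed. Their median midgut minus ovary difference was only 0.025, and their ovary replicates also differed. Of the 20 members higher in salivary gland replicate 2 (median 0.605), 4 passed. Of the 54 with salivary gland replicates within 2-fold (median 0.506), 23 did. No matching shares over all probes were taken, and the cause of this split was not tested. At an unadjusted limma p of 0.05 the count over all members was 31. No such count over all probes was taken, but 40.6% of them passed even the adjusted threshold. The midgut minus ovary values lean on single samples and on the scaling. The median difference of the members was 0.72 without ovary replicate 1 and 0.15 without ovary replicate 2. It was 0.35 without midgut replicate 1 and 0.44 without midgut replicate 2. With quantile normalization 4 members passed as higher in midgut and 5 as higher in ovary, against 1806 and 2076 of all probes. The median difference of the members then turned to -0.15. No majority direction is therefore given. Without the 3 arrays with low medians, 21 members passed, 17 higher in midgut, while over all probes 2785 were higher in midgut and 4061 in ovary, against 3008 and 2459 with all arrays. The median difference of all probes was then -0.16 and that of the members 0.24. Midgut and salivary gland shared a slide that held no ovary array, so an effect of the slide and one of ovary cannot be told apart. The authors' deposited table of this contrast lists 86 members, of which 37 have an adjusted p under 0.05, 30 higher in midgut, where 65% of the probes listed there do.

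Contig5338 had the highest difference. Its midgut ratios were -0.81, -0.94, -1.28 and -1.26, its ovary ratios -4.92, -4.91, -4.58 and -4.81, and its salivary gland ratios 1.53, 1.56, 2.29 and 2.02. Midgut was 13.3-fold higher than ovary (log2 difference 3.74, SE 0.27, limma adjusted p = 0.000107), so that its 3 tissues formed 3 separate steps. The authors kept 1 of its 4 salivary gland spots. A member without an identifier had the closest profile, 0.395 away on average over the 12 arrays, with a midgut to ovary difference of 3.37. Contig522 followed, with midgut ratios of -3.84 to -3.73 and ovary ratios of -5.81 to -5.47 (1.85, SE 0.49, limma adjusted p = 0.0221). The call for Contig522 was lost with quantile normalization (0.91), with scale normalization (1.73), with first or repeat arrays only and without any one midgut or ovary replicate (1.76 to 1.93).

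In the other direction, Contig8301 was 2.04-fold higher in ovary, with midgut ratios of -2.97, -2.99, -3.06 and -3.02 and ovary ratios of -2.25, -2.09, -1.68 and -1.92 (midgut minus ovary -1.03, SE 0.20, limma adjusted p = 0.00714). That call was lost with scale normalization (-0.79) and without ovary replicate 2 (-0.84). The other 2 members higher in ovary have no identifier, with differences of -1.89 and -1.72 (limma adjusted p = 0.0013 and 0.004245). Contig5841 had a difference of -0.79 (SE 0.30, limma adjusted p = 0.0727), which missed the threshold. It passed with quantile normalization (-1.001), with biological replicate as random block, with the spots the authors kept, without the 3 arrays with low medians (-0.88) and without ovary replicate 1 (-1.22).

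**Figure D4:**
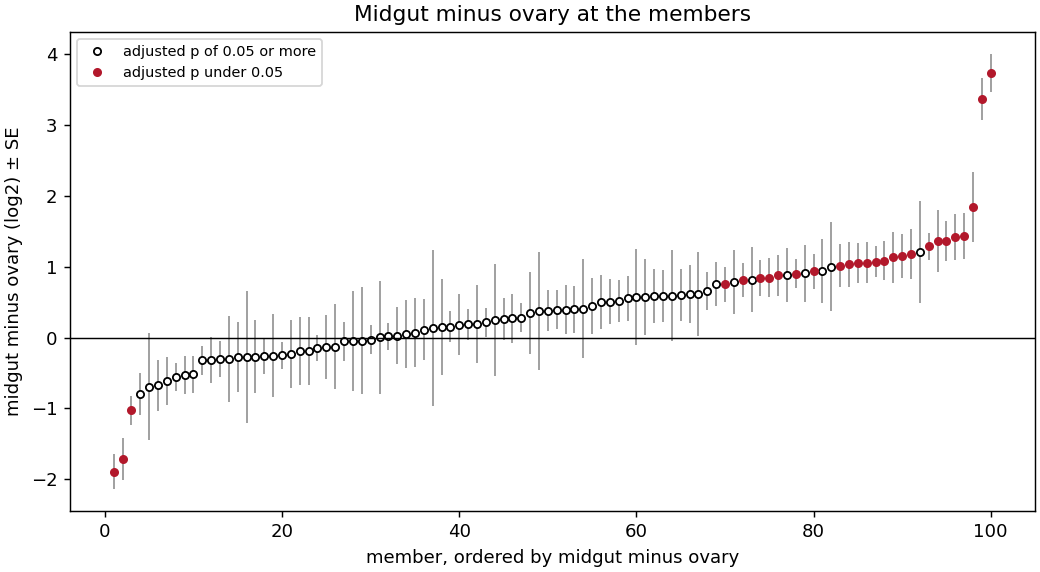
Midgut minus ovary (y, log2) with its standard error at the 100 members, ordered from low to high (x), with filled points past an adjusted p of 0.05 in limma. Most members lie between -1 and 1.5, and 2 stand apart at 3.37 and 3.74.

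The authors' own selection left out few spots of the members with an identifier. Of these 86 members, 71 had all 12 spots kept in the authors' deposited tables and 15 had part of them. The 14 members without an identifier matched no deposited fold change, and 2764 identifiers are listed there without values. Those 14 members are not in the shares that follow. The authors had left out 3.49% of the members' midgut spots, 1.74% of the ovary spots and 2.03% of the salivary gland spots, against 7.27%, 5.17% and 4.31% over all probes with an identifier. In the authors' deposited fold changes, 85 of the 86 met the limit. The pairing largely fixes this count, because identifiers were given by matching these fold changes to means of the same arrays.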

How the data were processed

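Each probe and array has 1 deposited log2 ratio. The submitters' processing notes name limma; how the authors corrected background and normalized is not given in the sources used. The authors' deposited tables hold log2 fold changes, linear folds (a ratio) and adjusted p-values, per the file headers, for 10695 of 13459 identifiers. Value-table lines got an identifier where its fold changes equalled differences between means of all or some arrays of each tissue, within 2e-08. All 10695 paired, 0 of them ambiguously; 3 decoys also paired. Spots missing from such means count as left out by the authors.

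Arrays of a replicate were averaged (avearrays), and the 6 replicates were fitted by lmFit and eBayes (limma 3.58.1, R 4.3.3) with Benjamini-Hochberg adjustment over all probes, a threshold of 0.05 and 3 residual degrees of freedom. For 2 against 2 samples, no exact permutation p lies below 0.33. The number of arrays limits the precision. The fit was also run on simulated data in which only a small part of the probes differed between midgut and ovary. Many more differ here, so nothing is read from that run. The members, lists and alternatives were chosen with earlier results of these data known. Named probes are identified members, 2 each, with the largest margin, nearest the limit (also outside it), and highest or lowest in midgut minus ovary, salivary gland replicate difference and salivary gland mean. Alternatives changed the normalization, arrays, replicates, thresholds and blocks. Python 3.11.15 with pandas 2.3.3, numpy 2.4.6 and matplotlib 3.10.9 made tables and figures.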

Additional observations from a re-analysis of the deposited data

Results flagged for a closer look

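At Contig5116 the repeat array of ovary replicate 1 gave 0.79, far from the -2.52 to -2.06 of the other 3 ovary arrays. The authors left this spot out. With the spots and probes the authors kept, its midgut minus ovary difference was 1.34 in place of 0.62. Among the 45 sets of 4 arrays of a tissue at named members this was the 1 that stood apart, and among the 300 sets at all members 9 did. The limit used marks about 1 in 20 sets of 4 independent values. Here 2 arrays share each replicate, so that rate does not apply.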

How the results depend on the processing

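The number of probes that met the rule was 186 with a limit of 2 and 51 with a limit of 3. Under the other settings tried it stayed within 1.5 times of 100, from 87 with the spots and probes the authors kept to 133 without salivary gland replicate 2, and from 90 to 133 with 1 replicate left out; quantile normalization gave 106, of which 75 were members, and scale normalization 116, of which 71 were. For midgut against ovary, the members past the threshold numbered 8 in limma at an adjusted p of 0.01, 17 with first arrays only, 9 with repeat arrays only, 9 with quantile and 15 with scale normalization, and 5 to 31 when 1 replicate was left out, which takes the spread of the single remaining sample from the other tissues. Over all probes the counts were 3545 when a 2-fold change was also required, 3348 at the stricter adjusted p, 3580 with repeat arrays only and 3463 to 5346 with 1 replicate left out. First arrays only gave 4028 such probes, quantile normalization 3882 and scale normalization 4124, against 5467 of 13459 in the main fit. The main fit called 27 members. Calls thus fell over all probes too, but in each of these settings the members lost a larger share of theirs. The settings without the 3 arrays with low medians and with the spots the authors kept, and those for the replicate differences, were chosen after seeing the data. With the replicate block, 25 members and 5342 probes passed; same-numbered replicates correlated at -0.029, 0.034 and 0.101 over all probes, which does not settle a pairing. Members 2-fold apart between ovary replicates numbered 11 with quantile normalization. The cause of these changes was not tested. Midgut minus ovary turned sign at Contig5329 (-0.0856), Contig1751 (-0.0162), Contig6450 (-0.0879) and GO248521.1 (-0.30) with quantile normalization, at Contig8364 with scale normalization (0.0645), and at Contig5116 without the 3 arrays (-0.12). With 1 replicate left out it ran from -0.2464 to 0.1893 at Contig8364, from -1.4728 to 0.0859 at Contig4655 and from -0.2556 to 1.4982 at Contig5116.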
